A study of Homo sapiens with 6 samples.

Results

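The genes described here are 9 regulators and targets of p53: MDM2, MDM4, CDKN1A, PLK2, PLK3, AEN, TP53INP1, GDF15 and TIGAR, of 18417 named genes measured in all. They were selected on function with their differences between the groups already known, so the values below describe them and no p-value is given for any of the 9. Each gene had 1 probe set, and all 9 were measured. The p53 transcript itself was not analysed here.

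The p53 protein is a transcription factor that DNA damage, nucleolar stress and oncogene signalling stabilise. In unstressed cells the ubiquitin ligase MDM2, together with its relative MDM4, keeps p53 low and masks its activation domain, and MDM2 is itself a p53 target, which closes a feedback loop. Other targets arrest the cell cycle, drive cell death, or adjust metabolism and autophagy, and several are also induced by stress pathways that do not involve p53. HCT116, the cells used here, is an established human colorectal carcinoma line known to carry wild-type p53.

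HCT116 cells were transfected transiently with an siRNA duplex and RNA was taken after 48 h. The 3 control arrays came from cells given a duplex against GFP, a jellyfish protein that the cells do not encode, and the 3 siChe-1 arrays from cells given a duplex against Che-1, the product of the AATF gene. No other agent or allele separates the groups in the labels, and both come from 1 cell line in serum-containing medium. Values are log2 RMA intensities, so a difference of 1 is a 2-fold change. Levels of probe sets of different genes do not show which transcript is more abundant. Where a level is set against an array median below, it describes signal only.

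Several facts about the arrays bear on every value below. AATF was higher, not lower, where the labels name its siRNA, at 8.53, 8.81 and 8.87 in the arrays labelled siChe-1 and 7.55, 7.75 and 7.55 in the arrays labelled control (log2 difference 1.12 ± 0.13, SE, limma adjusted p = 0.00122). Groups are therefore called by their labels, and every direction given here would turn if the labels were exchanged. The siChe-1 replicate 1 array lay farthest from its group. Its root mean square deviation from the group mean was 0.245 over all genes, against 0.132 to 0.170 for the other 5 arrays. Differences of the 9 genes are given with and without it. Those of the other p53 pathway genes named later are given from all 6 arrays only. Array medians lay between 4.95 and 5.05. The epithelial markers EPCAM (9.93 to 10.63), KRT8 (11.97 to 12.61) and KRT18 (11.63 to 12.22) were bright in all 6 arrays. VIL1 (3.57 to 3.76), CEACAM5 (2.84 to 3.24) and LGALS4 (4.46 to 4.72), markers of differentiated colon epithelium, lay below the array medians. CDX1 (5.56 to 6.28), CDX2 (6.82 to 7.55) and CDH1 (7.78 to 8.25), from the same list of epithelial markers, lay above them in all 6 arrays. KRT19, another epithelial keratin, was called lower in the arrays labelled siChe-1 (-0.59, limma adjusted p = 0.0171). PTPRC, DCN and PECAM1, which define leukocytes, fibroblasts and endothelium, read at most 3.04. Of 14 markers of these other cell types none passed by limma (3 at an unadjusted p under 0.05), and TYROBP (5.83 to 6.20), ACTA2 (6.19 to 6.92) and COL1A1 (6.97 to 7.48) read above the array medians in all 6 arrays. What part these markers have in the results below was not tested. The labels do not say whether replicates are separate cultures, so errors and p-values measure only the spread between arrays, which may be technical. A change in some cells and a smaller change in every cell cannot be told apart in such bulk RNA.

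The 9 genes did not move as a block. At an adjusted p under 0.05 over all 18417 genes, TP53INP1 and GDF15 were called higher and PLK2, AEN and TIGAR lower in the arrays labelled siChe-1. The remaining 4, MDM2, MDM4, CDKN1A and PLK3, were not called. Over all genes 1.19% were called higher and 2.52% lower by the same limma test. Because the 9 were picked with these differences known, nothing is read from their share of calls. The median difference of the 9 was -0.01, beside 0.0051 over all genes. In 7 of the 9 the groups did not overlap, a property of 24% of all genes.

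**Figure D1:**
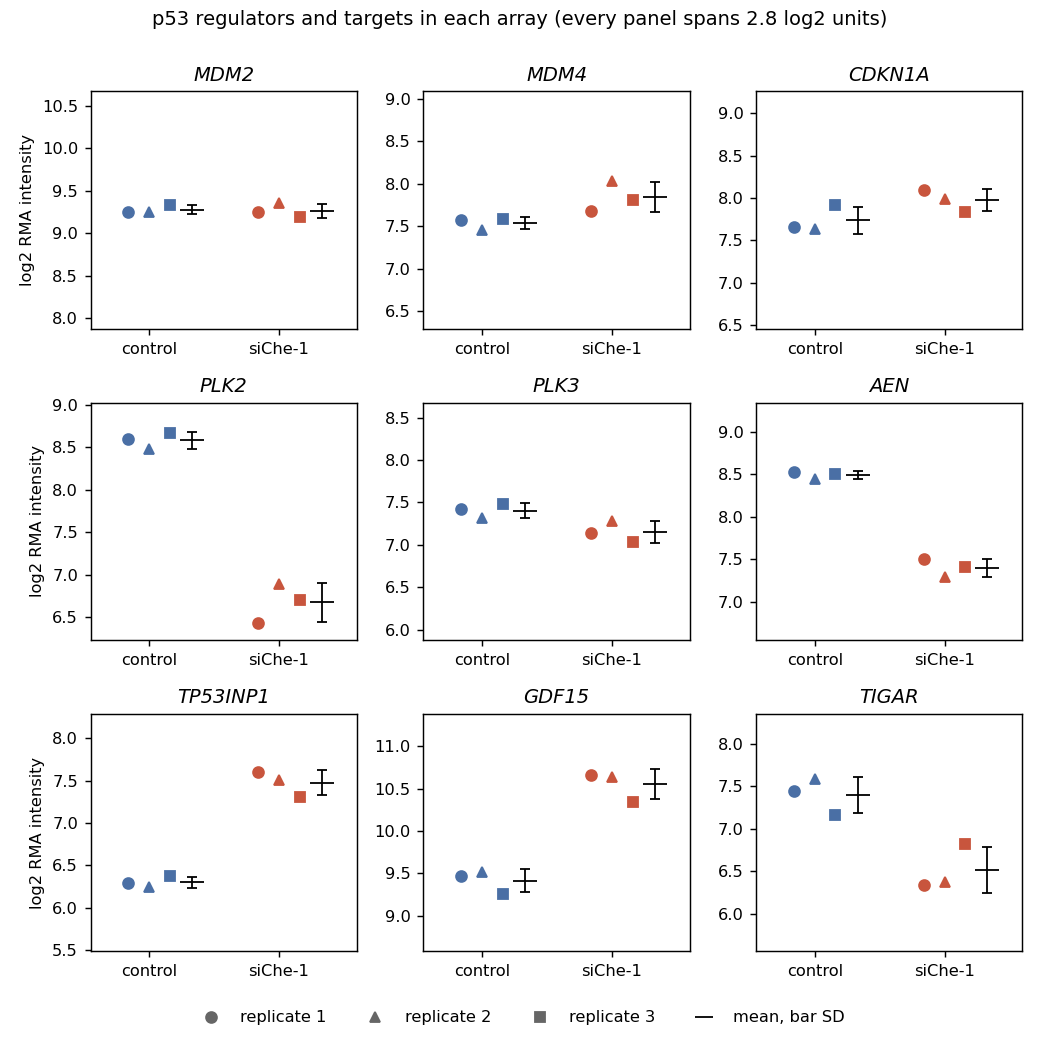
Level of each of the 9 genes in each array (log2 RMA intensity, 1 panel per gene, all panels spanning 2.8 units), for arrays labelled control (blue) and siChe-1 (red), with symbols for the replicate number and a bar for the group mean and SD. PLK2 shows the widest gap between groups (1.59), while the points of MDM2 and CDKN1A overlap.

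MDM2 and MDM4, the 2 genes of the 9 that keep p53 low, were not called. MDM2, the ligase that sends p53 to the proteasome, read 9.24, 9.25 and 9.33 in the control arrays and 9.25, 9.35 and 9.20 in the arrays labelled siChe-1. The 2 sets of values were interleaved, and the means were 9.28 ± 0.050 and 9.27 ± 0.080 (SD, n = 3 each). Their log2 difference was -0.01 ± 0.11 (SE), and -0.0021 without siChe-1 replicate 1. An SE of this size leaves room for a small change in either direction. MDM4, which binds the p53 activation domain and pairs with MDM2, read 7.57, 7.45 and 7.58 in the control arrays and 7.68, 8.04 and 7.81 in the arrays labelled siChe-1. All 3 siChe-1 values lay above all 3 control values, by a gap of 0.10 that is smaller than the spread within the siChe-1 group (0.36). The difference was 0.31 ± 0.13 (SE), and 0.39 without siChe-1 replicate 1, the lowest array of its group for this gene.

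MDM2 is transcribed from an upstream and a downstream set of start sites, the downstream one being known as the p53-responsive promoter. RefSeq (GRCh38.p14) lists 4 MDM2 windows, and the 250 bases before a downstream start are shown because this gene is the textbook readout of p53 activity and its values were interleaved between the groups. Capitals in this and the later sequences mark matches on either strand to the consensus of the p53 half-site, to CCAAT and to TATAAA.

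MDM2 promoter, GRCh38.p14, chr12:68808767-68809016, plus strand: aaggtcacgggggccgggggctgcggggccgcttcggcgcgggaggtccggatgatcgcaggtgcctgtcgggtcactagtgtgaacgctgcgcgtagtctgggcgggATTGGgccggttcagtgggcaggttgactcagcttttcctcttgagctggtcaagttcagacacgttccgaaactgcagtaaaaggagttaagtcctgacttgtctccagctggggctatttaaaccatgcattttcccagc

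The capitals in the MDM2 window are the reverse complement of CCAAT, from 142 to 138 bases before the start. None of the 4 MDM2 windows held an exact p53 half-site, which says only that these exact letters are not there. A p53 site that departs from the consensus at any base is not marked by this search, so its absence cannot be read from the capitals.

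Of the 3 cell cycle genes, PLK2 was called lower and CDKN1A and PLK3 were not called. CDKN1A encodes p21, an inhibitor of cyclin-dependent kinases and the main effector of p53-driven arrest. It read 7.66, 7.63 and 7.92 in the control arrays and 8.09, 7.99 and 7.84 in the arrays labelled siChe-1. The highest control array, replicate 3, lay above the lowest siChe-1 array, also replicate 3, so the groups overlapped. The difference was 0.24 ± 0.13 (SE), and 0.18 without siChe-1 replicate 1.

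PLK2, a polo-like kinase that acts in centriole duplication and in the response to stress, showed the largest difference of the 9 genes. It read 8.60, 8.48 and 8.67 in the control arrays and 6.43, 6.89 and 6.70 in the arrays labelled siChe-1. The lowest control array exceeded the highest siChe-1 array by 1.59. The means were 8.58 ± 0.10 and 6.67 ± 0.23 (SD, n = 3 each), a 3.76-fold difference (-1.91 ± 0.14 on the log2 scale, SE). Without siChe-1 replicate 1, the lowest array, it was -1.79. PLK3, its close relative and also a stress-responsive kinase, read 7.42, 7.31 and 7.48 in the control arrays and 7.14, 7.28 and 7.03 in the arrays labelled siChe-1. The groups of PLK3 were separated by only 0.030, and the difference was -0.25 ± 0.12 (SE), with or without siChe-1 replicate 1. PLK2 and PLK3 thus lay on the same side of 0 with differences of unlike size, and the contrast between them was not tested because both were chosen with it known.

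Among genes of cell death, AEN encodes a nuclease that digests nucleic acids during p53-dependent apoptosis. Its control arrays read 8.53, 8.45 and 8.50, and those labelled siChe-1 read 7.50, 7.29 and 7.41. Both groups were tight and far apart, with means of 8.49 ± 0.043 and 7.40 ± 0.11 (SD, n = 3 each). The 2.13-fold difference (-1.09 ± 0.12 on the log2 scale, SE) was -1.14 without siChe-1 replicate 1.

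PLK2 and AEN were the 2 genes of the 8 with a RefSeq promoter window whose 250 bases before a start held an exact match to the p53 half-site consensus. Their windows are shown because of these matches. Whether the matches bear on the differences was not tested, as the 9 genes were chosen with the differences known.

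PLK2 promoter, GRCh38.p14, chr5:58460087-58460336, minus strand: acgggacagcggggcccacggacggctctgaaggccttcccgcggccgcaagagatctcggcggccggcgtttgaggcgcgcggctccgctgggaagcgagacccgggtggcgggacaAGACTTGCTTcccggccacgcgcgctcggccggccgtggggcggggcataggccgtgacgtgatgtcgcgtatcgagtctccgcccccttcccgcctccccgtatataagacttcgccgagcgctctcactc

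AEN promoter, GRCh38.p14, chr15:88621090-88621339, plus strand: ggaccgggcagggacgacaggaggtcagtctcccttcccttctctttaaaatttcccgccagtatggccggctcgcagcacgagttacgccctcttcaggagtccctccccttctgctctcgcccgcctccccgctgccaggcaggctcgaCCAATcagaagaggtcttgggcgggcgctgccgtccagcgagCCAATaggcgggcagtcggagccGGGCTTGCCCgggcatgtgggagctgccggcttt

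The PLK2 match, AGACTTGCTT, lay from 132 to 123 bases before the start, and the AEN match, GGGCTTGCCC, from 34 to 25 bases before it. AEN also held CCAAT at 99 to 95 and at 57 to 53 bases before its start. A match of this kind stood in 5.59% of 34796 distinct RefSeq windows of the same length. CCAAT, on either strand, stood in 32% and TATAAA in 10.8%. The matches are descriptions of letters, and binding was not measured.

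The higher genes were TP53INP1 and GDF15. TP53INP1 encodes a stress-induced protein that promotes phosphorylation of p53 and takes part in autophagy. It read 6.29, 6.24 and 6.37 in the control arrays and 7.60, 7.51 and 7.31 in the arrays labelled siChe-1. Every siChe-1 array exceeded every control array by at least 0.94. The means were 6.30 ± 0.066 and 7.47 ± 0.15 (SD, n = 3 each), a 2.25-fold difference (1.17 ± 0.12 on the log2 scale, SE), and 1.11 without siChe-1 replicate 1.

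GDF15 is a secreted cytokine of the TGF-beta superfamily that many kinds of cell stress induce, through p53 or through other factors. It read 9.47, 9.52 and 9.26 in the control arrays and 10.67, 10.64 and 10.35 in the arrays labelled siChe-1. Replicate 3 was the lowest array in each group, and the groups were 0.83 apart at their nearest. Group means were 9.41 ± 0.14 and 10.55 ± 0.18 (SD, n = 3 each). The 2.20-fold difference (1.14 ± 0.14 on the log2 scale, SE) was 1.08 without siChe-1 replicate 1. Its promoter window is shown as that of a gene called higher, no window for TP53INP1 being used here.

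GDF15 promoter, GRCh38.p14, chr19:18385908-18386157, plus strand: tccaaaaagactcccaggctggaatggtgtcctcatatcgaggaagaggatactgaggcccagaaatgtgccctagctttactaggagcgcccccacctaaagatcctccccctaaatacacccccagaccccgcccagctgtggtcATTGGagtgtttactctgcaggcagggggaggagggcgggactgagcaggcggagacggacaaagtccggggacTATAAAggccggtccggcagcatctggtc

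GDF15 held TATAAA at 29 to 24 bases before the start and the reverse complement of CCAAT at 103 to 99 bases, and no exact p53 half-site. Of the 8 genes, GDF15 alone had TATAAA in the window. TIGAR held CCAAT at 189 to 185 bases before its start. MDM4, CDKN1A and PLK3 held none of the 3 motifs.

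TIGAR, an enzyme that lowers fructose-2,6-bisphosphate and so diverts glucose carbon towards the pentose phosphate pathway, was the metabolic gene of the 9. It read 7.45, 7.59 and 7.17 in the control arrays and 6.34, 6.38 and 6.83 in the arrays labelled siChe-1. The groups did not overlap, but both were broad, and replicate 3 was the lowest control array and the highest siChe-1 array. The log2 difference was -0.89 ± 0.17 (SE), or 1.85-fold, and -0.80 without siChe-1 replicate 1. TIGAR was no longer called without control replicate 1 (-0.86), control replicate 2 (-0.79) or siChe-1 replicate 2 (-0.82), nor when all 33297 probe sets were tested together. The other 4 called genes were called under all 14 alternatives.

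**Figure D2:**
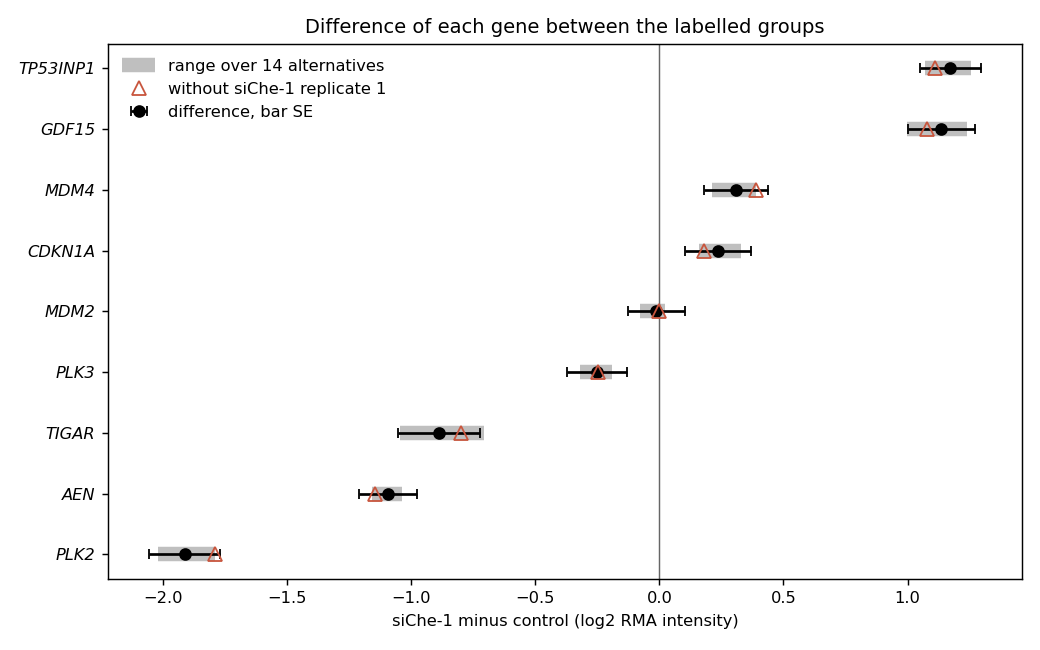
Difference of each gene, siChe-1 minus control by the labels (log2 RMA intensity, x axis), with SE bars, the range over the 14 alternative settings in grey and the value without siChe-1 replicate 1 as a triangle. Under the 14 settings TP53INP1 ranged from 1.07 to 1.25, GDF15 from 0.997 to 1.24, TIGAR from -1.04 to -0.71, AEN from -1.16 to -1.04, PLK2 from -2.02 to -1.79 and MDM2 from -0.08 to 0.02.

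Within a group the replicates did not shift all 9 genes together. Control replicate 2 was the lowest control array for 6 of the 9 genes and control replicate 3 the highest for 6. Among the arrays labelled siChe-1, replicate 3 was lowest for 5 genes, and replicates 1 and 2 were each highest for 4. Replicate 1, the array farthest from its group over all genes, was the lowest for 3 genes, MDM4, PLK2 and TIGAR.

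For each gene, the named gene with the most similar profile was sought by Pearson r over the 6 arrays, among 5470 genes above the median level that spanned at least 0.5. The 6 points fall into 2 groups of 3, so r mostly follows the group difference and is a description only. PLK2 was most like ZC3HAV1, the zinc finger antiviral protein (r = 0.9998), and AEN most like LAMP3, a lysosome-associated membrane protein (r = 0.997). These partners had log2 differences of -2.43 and -2.85, larger than those of PLK2 and AEN. TP53INP1 was most like CILK1, a ciliogenesis kinase (r = 0.998), and GDF15 most like PPP2R5C, a phosphatase subunit (r = 0.997). TIGAR was nearest to TRAPPC4 (r = 0.993), MDM4 to C10orf12 (r = 0.995), PLK3 to ACAP3 (r = 0.992) and CDKN1A to PROSER3 (r = 0.987). MDM2, whose 6 values spanned only 0.16, had the weakest partner, TMX4 (r = 0.936).

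Other genes of the pathway were taken from lists that leave the 9 genes out. These lists too were chosen with earlier results of these data known. Their counts and p-values are therefore descriptions, and nothing is read from their share of calls. Of 50 measured p53 targets, 2 were higher, 7 were lower and 41 did not pass (median -0.07), beside 1.19% higher and 2.52% lower over all 18417 genes (median 0.0051). Most of the calls were in the apoptosis list, where 1 of 14 was higher and 4 were lower. TNFRSF10A, a death receptor for TRAIL, fell by 1.11 on the log2 scale (SE 0.20, limma adjusted p = 0.0128). PMAIP1, the gene of the pro-apoptotic BH3-only protein NOXA, fell by 0.98 (SE 0.13, limma adjusted p = 0.00193). FAS, another death receptor, stood at -0.87 ± 0.15 and AIFM2, a redox enzyme also called FSP1, at -0.81 ± 0.14, both called lower. TNFRSF10D, a decoy receptor for TRAIL, was the higher gene, from 8.11 ± 0.14 to 8.95 ± 0.19 (SD, n = 3 each, limma adjusted p = 0.00885).

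Of the 8 genes of arrest and feedback, 1 passed. GADD45A, a growth arrest protein, read 8.97, 8.73 and 8.82 in the control arrays and 8.30, 8.33 and 8.31 in those labelled siChe-1, a fall of 0.53 on the log2 scale (SE 0.12, limma adjusted p = 0.0374). Of 12 membrane and secreted targets, 2 were lower and 1 higher. The ephrin receptor EPHA2 stood at -0.73 ± 0.12 (limma adjusted p = 0.0102) and the cytokine LIF at -0.62 ± 0.14 (limma adjusted p = 0.0426). KITLG, the ligand of the receptor KIT, was higher at 0.63 ± 0.15, with a limma adjusted p of 0.0499 that lies at the threshold. None of 7 repair and nucleotide genes passed by limma (3 at an unadjusted p under 0.05), XPC (-0.37, adjusted p = 0.212) and PCNA (-0.34, adjusted p = 0.253) having the smallest p. Nor did any of 9 metabolic and autophagy genes (2 at an unadjusted p under 0.05), where SESN2 (0.50, adjusted p = 0.0607) and FBXW7 (-0.54, adjusted p = 0.274) came nearest.

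Of 33 other measured regulators of p53, 1 was higher, none was lower by limma and 32 did not pass (median -0.0001, 5 at an unadjusted p under 0.05). That is 3.03% of the list, near the share over all genes (1.19% higher and 2.52% lower), and is no result about regulators. SETD7, a lysine methyltransferase with p53 among its substrates, read 8.27, 8.01 and 8.27 in the control arrays and 8.69, 9.07 and 9.02 in those labelled siChe-1 (0.75 ± 0.14, SE, limma adjusted p = 0.0189). In the list of 17 proteins that stabilise or destabilise p53 none passed by limma (0 at an unadjusted p under 0.05), with PPP1R13L, an inhibitor of p53, at 0.40 (adjusted p = 0.402) and CDKN2A at -0.25 (adjusted p = 0.403). Relatives of the 9 genes and partners of p21 gave 0 calls by limma among 22 measured (median -0.02, 6 at an unadjusted p under 0.05). CDK6 (-0.56, adjusted p = 0.0632) and CCND1, cyclin D1 (-0.45, adjusted p = 0.0829), had the smallest p, and both stand in the list as partners of p21.

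**Figure D3:**
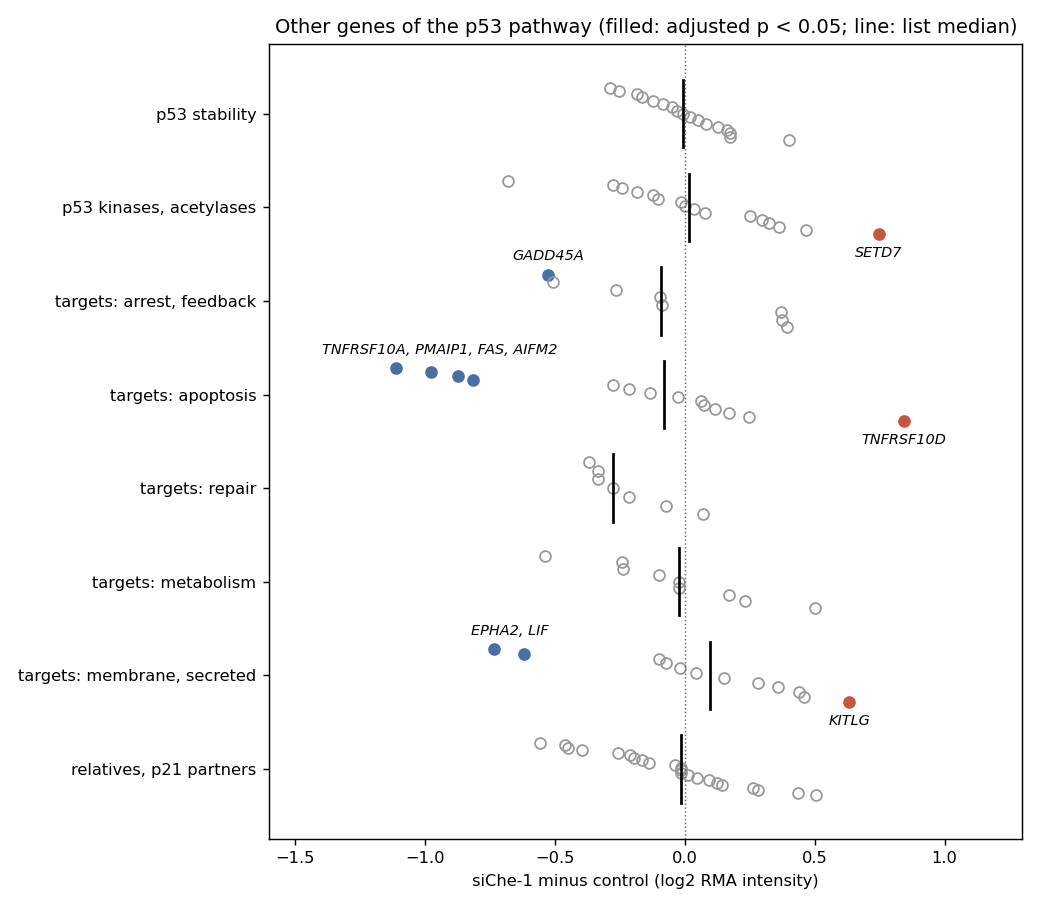
Difference of other p53 pathway genes, siChe-1 minus control by the labels (log2 RMA intensity, x axis), 1 point per gene in 8 lists, filled where limma's adjusted p was under 0.05 and named, with a line at each list median. List medians lie between -0.27 and 0.10, and the filled points of the apoptosis list lie on both sides of 0.

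The number of calls changed when 1 array was left out, which also leaves fewer arrays to test. FAS and TNFRSF10D were called under 12 of the 14 alternatives, AIFM2 and EPHA2 under 11 and TNFRSF10A under 10. Without siChe-1 replicate 1, 5 targets were higher and 8 lower, and 4 regulators were higher. Without control replicate 1, 0 targets were higher and 1 was lower by limma, and that gene was PMAIP1, called under all 14 alternatives. Lower targets numbered 3 when control replicate 2 was left out, 2 when control replicate 3 was, and 4 when siChe-1 replicate 3 was. KITLG lost its call under 8 of the 14 alternatives, LIF under 7, and GADD45A and SETD7 under 6 each.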

How the data were processed

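The series has 6 Affymetrix whole-transcript arrays, each made from 6 micrograms of total RNA. Per the submitters' processing notes, the authors made the deposited log2 intensities with RMA in Affymetrix Expression Console. Its version and settings are not given in the sources used here. RMA equalises the distributions of arrays, which hides any change in RNA content per cell, and it compresses differences of dim genes. No detection calls were used, and having 3 arrays a group limits the precision.

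Of 33297 probe sets, 19460 had 1 gene symbol, 1754 had several and 12083 were not listed with one. A gene with several probe sets was represented by the one with the highest mean, which left 18417 genes. Arrays labelled siChe-1 were compared with arrays labelled control in limma 3.58.1 under R 4.3.3, by lmFit and eBayes without covariates or filters, with Benjamini-Hochberg adjustment over all genes. Errors of means are SDs and errors of differences are moderated SEs.

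The members and the gene lists were chosen with earlier results of these data known. Genes named from a list were its called genes, at most 6 by size, or the 2 with the smallest p. Promoter windows from RefSeq (GRCh38.p14) covered 8 of the 9 genes and were searched with Python 3.11.15. In a test on simulated data for this comparison with 18417 genes, 70% of 2-fold and 98% of 4-fold changes were recovered. Of the calls in it, 6.15% were false. The simulated noise was normal and independent, with the same SD in every array for a gene. It therefore held no array that lay apart, as siChe-1 replicate 1 does in the real data. There were 14 alternatives. Of these, 6 left out an array each, and the others were repeated quantile normalization, median centring, a filter removing the dimmest 40% of genes, a test of all probe sets, mean values per gene, a trended robust prior, array weights and a replicate block.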

Additional observations from a re-analysis of the deposited data

How the results depend on the processing

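The differences of the 9 genes kept to within 1 replicate SD (mean of the 2 group SDs) of the reported value under all 14 alternatives. For most alternatives this was fixed in advance. The filter, the test of all probe sets, mean values per gene, the trended prior and the replicate block leave these differences unchanged. Leaving out 1 of 3 arrays could not move them that far. Only repeated quantile normalization, median centring and array weights could have done so. AATF stayed between 1.05 and 1.23 and was called under each of the 14. Counts over many genes moved more. Genes called higher (220) and lower (465) became 170 and 680 with centring on array medians, and 1348 and 1517 with array weights. They ranged from 63 to 739 and from 199 to 826 when 1 array was left out, the highest counts being without siChe-1 replicate 1. Testing all probe sets gave 101 higher and 307 lower, which are counts of probe sets and not of genes. For the p53 targets (2 higher, 7 lower) centring on array medians left 1 higher, testing all probe sets 1 higher and 3 lower, and array weights 8 higher, and leaving out 1 array gave 0 to 5 higher and 1 to 8 lower. For the p53 regulators (1 higher, 0 lower) centring gave 1 lower, testing all probe sets 0 higher, array weights 5 higher and 2 lower, and leaving out 1 array 0 to 4 higher and 0 to 1 lower. With the replicate number as a replicate block, 416 genes were called higher and 729 lower, and 1 regulator was lower. The labels do not say that equal numbers share a culture, and deviations of same-numbered arrays correlated at 0.23, 0.064 and -0.045, so the numbers were not treated as pairs. The cause of these shifts was not tested. Background correction was not varied, as no scanner files were used, and a level near the low end of the scale may be background.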
